A study of Mus musculus with 6 samples.

Results

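Nuclear receptors other than the estrogen-related receptors were examined in the duodenal epithelium of WT and *Esrra*-/- mice. The members were 36 receptor symbols, from the PPAR, retinoid, thyroid hormone, oxysterol, bile acid, xenobiotic, steroid and orphan families, and all 36 were found among the 22611 genes of the deposited table. RNA was sequenced from 3 WT and 3 *Esrra*-/- (labelled ESRRAKO) mice, with 1 library per sample. The study describes the *Esrra*-/- mice as germline mutants without the gene in any tissue, and its methods give littermate controls and a high-fat diet for both groups, so a difference need not arise in the epithelium. The *Villin-Cre*ERT2 transgene was bred into the colony, and whether the sequenced mice carried it, like their ages, is not given in the sources used here. The labels give no sex, and the methods state that males and females were used.

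Nuclear receptors are transcription factors that bind DNA through paired zinc fingers and, in most cases, change activity when a small lipophilic ligand enters a pocket in the C-terminal domain. Many of them, among them the PPARs, RARs, LXRs, FXR, PXR, CAR and the thyroid hormone receptors, bind as a dimer with a retinoid X receptor. In the small intestine they sense dietary fatty acids, sterols, bile acids, retinoids and foreign compounds that reach the enterocyte from the lumen.

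Values are FPKM, the fragments on a gene scaled by transcript length and by the mapped fragments of the library, so levels can be compared between genes. Fold changes are differences of log2(FPKM + 0.1), *Esrra*-/- minus WT, a scale that understates the change of low genes. The limma fit covered the 10596 genes whose mean exceeded 1 FPKM, and a gene was called at an unadjusted p under 0.05 with a log2 fold change beyond 0.58 in size. *Esrra* itself, on chromosome 19, had 49.4, 73.5 and 103.6 FPKM in WT against 10.4, 9.42 and 8.72 FPKM in *Esrra*-/-, where its mean was 12.6% of the WT mean, a log2 fold change of −2.92 (SE 0.26, limma adjusted p = 0.0215). Summed enterocyte markers, such as the fatty acid binding proteins and *Alpi*, stood at 37210 to 64000 FPKM, while 10 mesenchymal markers summed to at most 7.83 FPKM. Lymphocyte markers summed to 114.3 to 206.1 FPKM in WT and 95.55 to 240.2 FPKM in *Esrra*-/-. The sum of 4 Y-linked genes was 27.3 to 46.7 FPKM in replicates 1 and 2 of each genotype and 0.0487 and 0.222 FPKM in WT replicate 3 and *Esrra*-/- replicate 3. These 2 libraries stood apart for several receptors, and log2 fold changes without 1 of them are given for the receptors whose direction or call changed.

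Of the 36 receptors, 23 passed the filter, each with more than 1 FPKM in every library, and 15 had a mean above 10 FPKM. None of the 23 was called lower, where 3.28% of all genes tested were, and none was called higher, where 1.35% were. At an unadjusted p under 0.05 alone there was 1 receptor, *Nr1h3*, against 10.8% of all genes, and no receptor had an adjusted p under 0.05 from limma (0.0378% of all genes), the smallest being 0.356. The log2 fold changes ran from −0.35 for *Nr0b2* to 0.58 for *Nr1h3*, with a median of 0.05 over the 23 receptors and of 0.03 over all genes tested. Over the fits that left out 1 library, the median of the receptors ran from 0.01 to 0.15. Without WT replicate 3 the log2 fold change turned direction, with no call on either side, for *Pparg*, *Nr2c2*, *Esr1* (0.01), *Nr1h4* (−0.08), *Nr3c1* (−0.03) and *Nr5a2* (−0.13). Without *Esrra*-/- replicate 3 it did so for *Nr1i2*, *Nr1i3* and *Thra* (−0.03). Directions also turned without other libraries, for example *Rxrb* (−0.02) without *Esrra*-/- replicate 2 and *Pparg* (0.035) without *Esrra*-/- replicate 1. For 11 receptors the 95% interval of the log2 fold change lay within 0.58 of 0 on both sides, and for the other 12 it reached beyond, so a change of that size was not excluded for them.

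**Figure D1:**
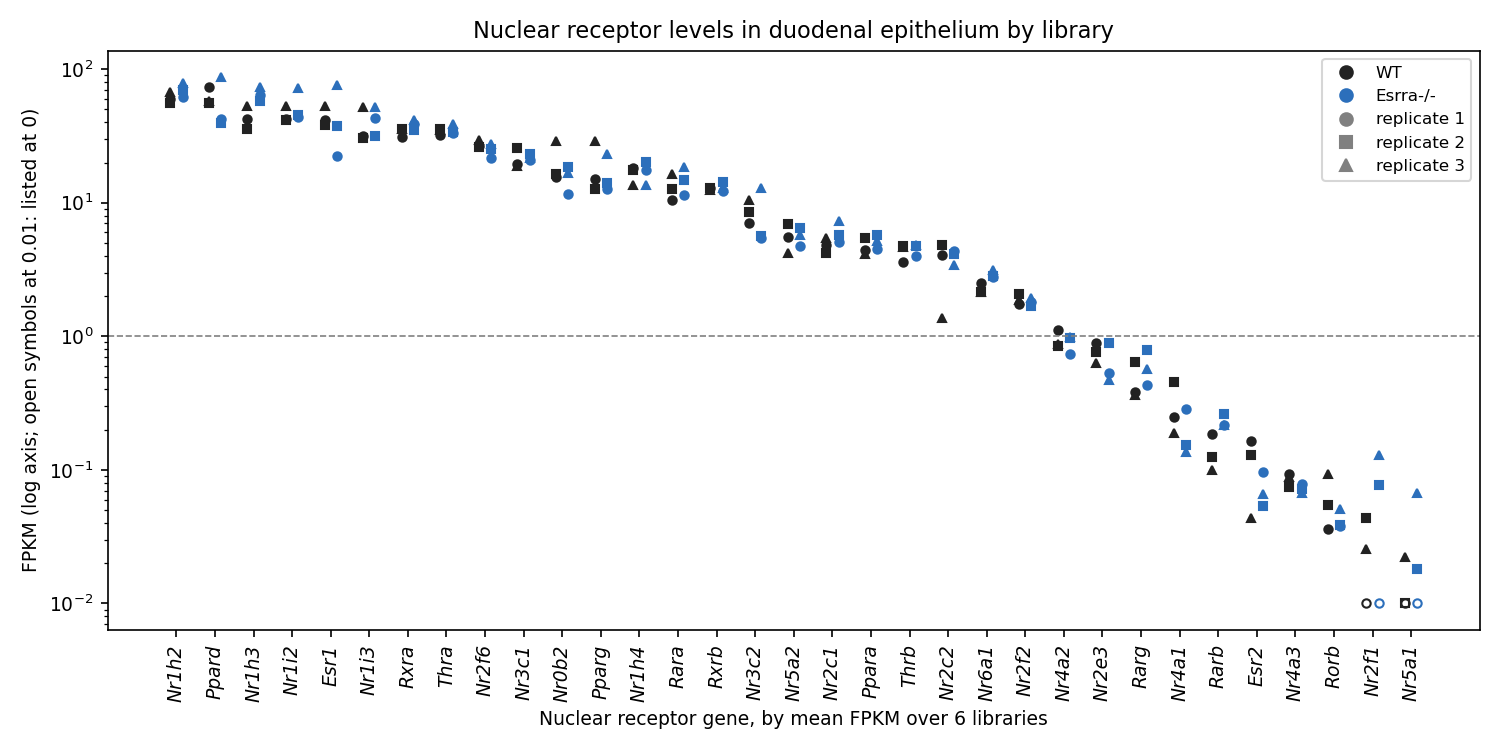
FPKM of the 33 receptors with a value above 0, on a log axis, in 3 WT (black) and 3 *Esrra*-/- (blue) libraries, with the replicate number as the symbol and a dashed line at 1 FPKM. The levels span from *Nr1h2*, with a mean of 65.7 FPKM, to *Nr5a1*, with a mean of 0.018 FPKM, and the genotypes overlap for most receptors.

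**Figure D2:**
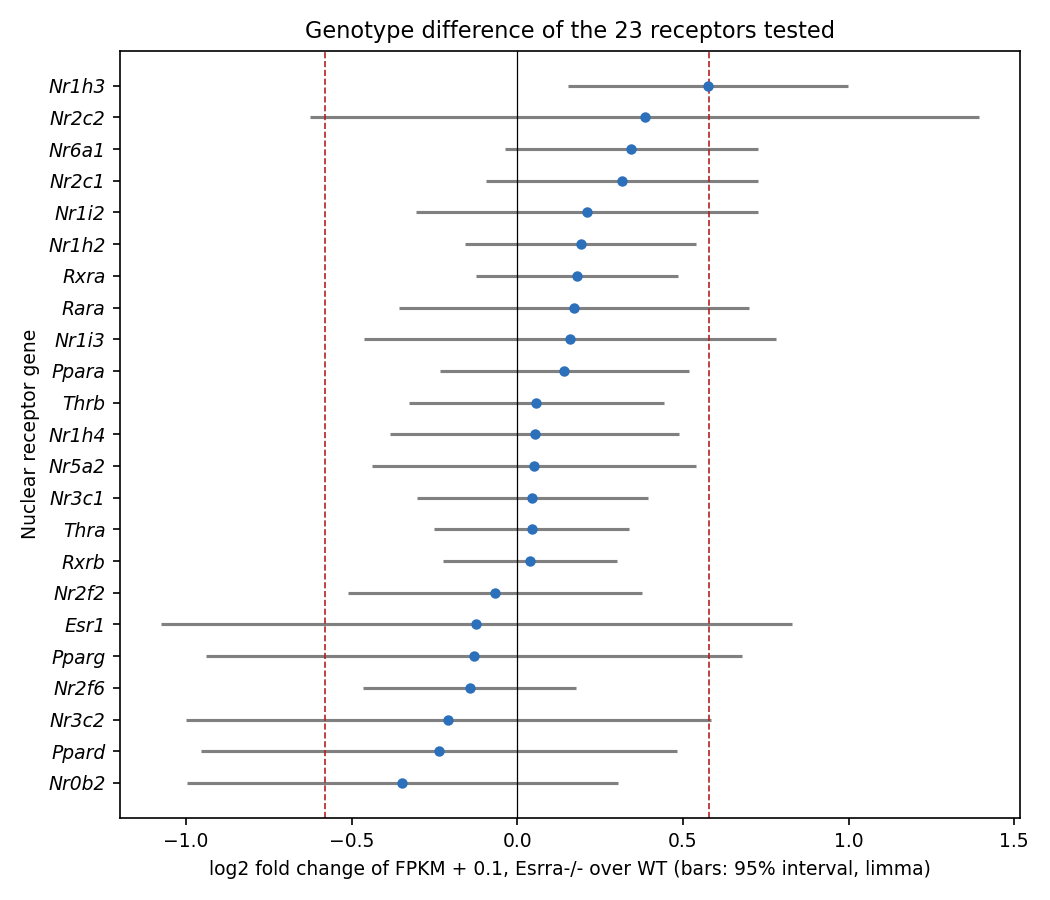
Log2 fold change of FPKM + 0.1, *Esrra*-/- over WT, with its 95% interval from limma for the 23 receptors past the filter, and dashed lines at 0.58 on either side of 0. Only the interval of *Nr1h3*, at 0.15 to 0.9994, lies wholly on 1 side of 0.

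The liver X receptors LXRα (*Nr1h3*) and LXRβ (*Nr1h2*) sense oxysterols and drive cholesterol efflux genes. *Nr1h3* occupies chr2:91024218-91042991 (mm9, minus strand). Its WT libraries stood at 42.7, 35.7 and 53.2 FPKM, against 63.6, 57.99 and 72.99 FPKM in the *Esrra*-/- libraries. Every *Esrra*-/- value lay above every WT value, and the *Esrra*-/- mean was 148% of the WT mean (WT 43.8 ± 8.78 FPKM, *Esrra*-/- 64.9 ± 7.58 FPKM, SD, n = 3 each). Its log2 fold change was 0.58 (SE 0.18, unadjusted limma p = 0.0143, adjusted p = 0.356), which unrounded fell just short of the threshold of a call, and a two-sided exact permutation test gave p = 0.1, the smallest that 3 against 3 allows. Groups that did not overlap, with *Esrra*-/- higher, were found for 2 of the 23 receptors and for 8.45% of all genes tested, and with *Esrra*-/- lower for 0 receptors and 9.14% of all genes. *Nr1h3* was called higher without WT replicate 3 (log2 fold change 0.72), without *Esrra*-/- replicate 1 (0.59), without *Esrra*-/- replicate 2 (0.65) and in the 4 libraries with Y-linked transcripts (0.64). It was not called with any other library left out, where the lowest value was 0.44. The shares of all genes called higher in the first 3 of these fits were 2.02%, 1.35% and 1.95%, and in the last 1.99%. No receptor was called lower in the first 3, where 3.78%, 2.38% and 5.05% of all genes were. Marker genes of Paneth cells, the antimicrobial cells at the crypt base, differed with genotype as well, with 3 of the 5 markers found in the table called lower (1 more, *Pla2g2a*, was listed but not matched), where 3.28% of all genes were, limma adjusted p-values of 0.422 to 0.457 for these 3, a median log2 fold change of −1.37 and summed levels of 7449 to 15930 FPKM in WT against 1554 to 6844 FPKM in *Esrra*-/-, none of them at 0. Of 7 crypt stem and proliferation markers, 1 was called lower (*Smoc2*, a stem cell gene named after its value was seen, limma adjusted p = 0.247) and 0 had a positive log2 fold change, with a median of −0.67. Their summed levels overlapped, at 151.5 to 275.6 FPKM in WT against 63.1 to 202.5 FPKM in *Esrra*-/-, with none at 0. Myeloid markers summed to 11.4 to 14.2 FPKM in WT and 13.2 to 14.5 FPKM in *Esrra*-/-. The part of these cell types in the *Nr1h3* values was not tested, and in bulk epithelium fewer cells of a type and less RNA per cell cannot be told apart.

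*Nr1h2* had 59.8, 56.2 and 67.7 FPKM in WT and 61.9, 69.4 and 79.0 FPKM in *Esrra*-/-. The genotypes overlapped for this receptor, which had the highest mean of the 36 over all 6 libraries, although in WT alone the mean of *Ppard* was higher (62.6 against 61.2 FPKM, within their SDs). Its log2 fold change was 0.19 (95% interval −0.16 to 0.54). It stood above *Nr1h3* in 3 of 3 WT libraries and in 2 of 3 *Esrra*-/- libraries. The share of *Nr1h3* in the summed FPKM of both LXR genes was 41.7%, 38.8% and 44.0% in WT and 50.7%, 45.5% and 48.0% in *Esrra*-/-, again without overlap. The sum itself was 105 ± 14.6 FPKM in WT and 135 ± 14.8 FPKM in *Esrra*-/-. The shares are not independent of the *Nr1h3* values and were not tested.

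The 250 bases before the outermost *Nr1h3* transcription start in RefSeq (GRCm38.p6, chr2:91195117-91195366, minus strand) are shown because this receptor had the lowest p of the 23 tested. None of the motifs searched below was found in them, so the run has no capitals.

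*Nr1h3*: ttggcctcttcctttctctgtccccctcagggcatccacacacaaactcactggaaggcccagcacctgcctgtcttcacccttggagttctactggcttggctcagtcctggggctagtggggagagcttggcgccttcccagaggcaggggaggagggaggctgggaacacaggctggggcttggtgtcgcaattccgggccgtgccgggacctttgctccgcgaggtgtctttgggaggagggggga

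Promoter windows of RefSeq, from 250 bases before to 50 bases after each start, were available for 33 of the 36 symbols, as 49 windows. TCAAGGTCA, the extended site that estrogen-related receptors bind, was in 0 of the 49 windows on either strand and in 0.423% of all 32851 windows. The shorter AAGGTCA, which the extended site contains, was in 3 windows, of *Rxra*, *Rxrg* and *Nr6a1*, and in 4.72% of all windows. AGGTCA, the core that most of these receptors share and that lies inside both longer motifs, was in 11 of 49 windows and in 16.3% of all. Direct repeats of that core with any 1 base between (DR1, the PPAR and RXR spacing) or any 4 bases between (DR4, the LXR and RXR spacing) were in 0 of 49 windows, and in 0.0396% and 0.0152% of all. The 3 stretches with AAGGTCA are printed in the direction of the gene, with the match in capitals. In *Nr6a1* the match is on the opposite strand and reads TGACCTT. They lie at chr2:27709232-27709260 (plus strand) for *Rxra*, chr1:167618165-167618193 (plus strand) for *Rxrg* and chr2:38784589-38784617 (minus strand) for *Nr6a1*, all in GRCm38.p6. A match describes letters and not binding.
*Rxra*: gggtggcaggaAAGGTCAgtcactctctg
*Rxrg*: atcggggttgaAAGGTCAgctgaaagctt
*Nr6a1*: catgcacactgTGACCTTagagcctgaac

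The PPARs are receptors for fatty acids and their derivatives. *Ppard* was the most abundant of them, with 73.8, 56.2 and 57.8 FPKM in WT and 42.1, 39.8 and 87.2 FPKM in *Esrra*-/-. *Esrra*-/- replicates 1 and 2 lay below every WT library, and *Esrra*-/- replicate 3 lay above every one. Over all 6 libraries the log2 fold change was −0.24 (95% interval −0.95 to 0.48, limma adjusted p = 0.803). Without *Esrra*-/- replicate 3 it was −0.60 (limma adjusted p = 0.426) and *Ppard* was called lower, as it was in the 4 libraries with Y-linked transcripts (−0.65). The shares of all genes called lower in these fits were 3.16% and 3.24%. *Pparg*, the driver of fat cell differentiation, ranged from 12.6 to 28.8 FPKM, and *Ppara*, which drives fatty acid oxidation genes, from 4.12 to 5.74 FPKM. Their log2 fold changes were −0.13 and 0.14, and that of *Pparg* was 0.22 without WT replicate 3 and −0.39 without *Esrra*-/- replicate 3. The order *Ppard*, *Pparg*, *Ppara* held in 6 of 6 libraries, and *Ppard* made up 63.7% to 79.1% of the summed PPAR level.

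The bile acid receptor FXR (*Nr1h4*) had 13.5 to 20.1 FPKM and a log2 fold change of 0.05. SHP (*Nr0b2*), a receptor without a DNA-binding domain that FXR induces and that represses other receptors, had 11.6 to 28.8 FPKM. Its log2 fold change of −0.35 was the lowest of the 23 (95% interval −0.997 to 0.303, limma adjusted p = 0.684), with WT replicate 3 the highest library. Without that library it was −0.07, and *Ppard* was lower at −0.29. DAX-1 (*Nr0b1*), the other receptor of this kind, was listed at 0 in every library.

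The xenobiotic receptors PXR (*Nr1i2*) and CAR (*Nr1i3*) induce enzymes that clear drugs and bile acids. *Nr1i2* had 42.7, 41.8 and 52.6 FPKM in WT and 44.0, 45.3 and 72.8 FPKM in *Esrra*-/-. *Nr1i3* had 31.5, 30.7 and 52.1 FPKM in WT and 43.0, 31.3 and 52.3 FPKM in *Esrra*-/-. For both genes replicate 3 was the highest library of its genotype and the genotypes overlapped, with log2 fold changes of 0.21 and 0.16. Without *Esrra*-/- replicate 3 these were −0.02 and −0.01, and without WT replicate 3 they were 0.32 and 0.41. Exons of *Nr1i3* share 2268 bases with *Tomm40l* on the opposite strand, at a mean of 15.97 FPKM, and quantification is not stated to use strand, so reads of the pair cannot be told apart.

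Among the retinoid X receptors, the shared dimer partners, *Rxra* had 30.9, 35.4 and 35.7 FPKM in WT and 39.0, 35.1 and 41.5 FPKM in *Esrra*-/-. The groups overlapped through WT replicates 2 and 3 and *Esrra*-/- replicate 2, and the log2 fold change was 0.18 (95% interval −0.13 to 0.48). *Rxrb* was among the steadiest receptors, at 12.2 to 14.2 FPKM with a log2 fold change of 0.04 (95% interval −0.23 to 0.30), and *Rxrg* was listed at 0 in every library. *Rxra* made up 70.5% to 76.2% of the summed RXR level. That sum was 43.8 to 48.3 FPKM in WT and 49.3 to 54.5 FPKM in *Esrra*-/-.

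Retinoic acid receptors take the all-trans form of the vitamin A acid as ligand. *Rara* held 93.3% to 97.3% of their summed level, with 10.5 to 18.5 FPKM and a log2 fold change of 0.17. *Rarg* had 0.366 to 0.792 FPKM, under the filter. *Rarb*, also under the filter, had 0.186, 0.126 and 0.0991 FPKM in WT and 0.218, 0.262 and 0.218 FPKM in *Esrra*-/-. The genotypes did not overlap for *Rarb*, as for 6.47% of the 17679 genes fitted with no filter in that direction (7.23% in the other, with 0 of the receptors under the filter). In that fit its log2 fold change was 0.50 (limma adjusted p = 0.629).

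Thyroid hormone receptors showed little spread. *Thra*, the form known for its role in crypt cell growth, had 31.96, 35.7 and 34.8 FPKM in WT and 33.3, 33.6 and 38.9 FPKM in *Esrra*-/-, and *Thrb* had 3.60 to 4.81 FPKM. The log2 fold changes were 0.04 (95% interval −0.25 to 0.34) and 0.06 (−0.33 to 0.44). *Thra* shares 263 exonic bases with *Nr1d1* on the opposite strand (mean 69.8 FPKM).

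Of the steroid receptors, *Esr1*, the estrogen receptor α, was the most abundant and varied widely between libraries. It had 42.0, 37.9 and 52.6 FPKM in WT and 22.4, 37.8 and 76.3 FPKM in *Esrra*-/-. *Esrra*-/- replicate 1 was the lowest and *Esrra*-/- replicate 3 the highest of the 6, so the *Esrra*-/- libraries enclosed all WT values. The log2 fold change was −0.12 with a 95% interval of −1.08 to 0.83, among the widest of the 23. Leaving out *Esrra*-/- replicate 3 gave −0.59, and leaving out *Esrra*-/- replicate 1 gave 0.30. *Esr2* (0.0438 to 0.164 FPKM) was near 0, and the progesterone receptor gene *Pgr* was listed at 0 in every library. The glucocorticoid receptor gene *Nr3c1* had 19.0 to 25.6 FPKM and a log2 fold change of 0.05. The mineralocorticoid receptor gene *Nr3c2* had 7.04, 8.47 and 10.5 FPKM in WT and 5.47, 5.68 and 13.0 FPKM in *Esrra*-/-, a log2 fold change of −0.21. Without *Esrra*-/- replicate 3 it was −0.61 and *Nr3c2* was called lower as well, while no receptor was called higher and 1.59% of all genes were.

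The orphan receptors of the NR2 group ranged widely. EAR2 (*Nr2f6*), a repressor related to the COUP-TFs, had 21.7 to 29.7 FPKM (log2 fold change −0.14), and its exons share 1622 bases with *Ocel1* on the opposite strand. The testicular receptors had 4.18 to 7.28 FPKM (*Nr2c1*) and 1.37 to 4.83 FPKM (*Nr2c2*), with log2 fold changes of 0.32 and 0.38. *Nr2c2* was low in WT replicate 3, at 1.37 FPKM against 3.44 FPKM or more elsewhere, and shares 3533 exonic bases with *Mrps25* on the opposite strand. Without that library its log2 fold change was −0.16. COUP-TFII (*Nr2f2*), best known from mesenchyme and veins, had 1.69 to 2.08 FPKM, COUP-TFI (*Nr2f1*) at most 0.129 FPKM and *Nr2e3*, a photoreceptor gene, 0.470 to 0.895 FPKM.

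LRH-1 (*Nr5a2*), which drives steroid synthesis and crypt renewal in the gut, had 4.22 to 6.93 FPKM and a log2 fold change of 0.05. SF-1 (*Nr5a1*), its relative in the adrenal gland and gonads, reached at most 0.0675 FPKM. The germ cell nuclear factor *Nr6a1* had 2.52, 2.15 and 2.13 FPKM in WT and 2.76, 2.84 and 3.11 FPKM in *Esrra*-/-. Like *Nr1h3*, it did not overlap between genotypes, and its log2 fold change was 0.34 (SE 0.16, limma adjusted p = 0.502). The exact permutation p was again 0.1. The immediate early receptors of the NR4A group were low in all libraries, with *Nr4a2* at 0.743 to 1.11 FPKM, *Nr4a1* at 0.136 to 0.456 FPKM and *Nr4a3* at 0.0673 to 0.0927 FPKM. *Rorb* had 0.0359 to 0.0935 FPKM. In all, 10 of the 13 receptors under the filter had a value above 0 in some library and 3 were listed at 0 throughout.

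The 2 libraries without Y-linked transcripts were also compared with the other 4. With genotype as the other term in limma, 4 of the 23 receptors were called higher in them, against 5.32% of all genes tested, and 1 was called lower, against 4.68%. The comparison was made after the values were seen. *Pparg* had 28.78 and 23.01 FPKM in these libraries and 15.1, 12.6, 12.7 and 14.2 FPKM in the others, a log2 difference of 0.92 (SE 0.13, limma adjusted p = 0.0581). The other receptors called higher were *Esr1* (log2 difference 0.89, adjusted p = 0.120), *Nr3c2* (0.82, adjusted p = 0.0720) and *Nr1i3* (0.63, adjusted p = 0.0742), and *Nr2c2* was called lower (−0.96, adjusted p = 0.115). Without WT replicate 3 no receptor was called lower. For *Ppard*, *Nr3c2* and *Esr1*, *Esrra*-/- was lower than WT in the 4 libraries with Y-linked transcripts and higher in the 2 without. This held for 5.72% of all genes tested, while 0 receptors and 5.78% of all genes had the opposite pattern. *Esr1* met it narrowly, with *Esrra*-/- replicate 2 at 37.79 FPKM and WT replicate 2 at 37.93 FPKM. The interaction of genotype with this split reached an unadjusted p under 0.05 for 3 receptors (*Ppard*, *Nr3c2* and *Nr2c2*) and 5.29% of all genes, and an adjusted p under 0.05 for none of the 23. For the split itself an unadjusted p under 0.05 was reached by 11 of the 23 and by 28.3% of all genes tested, and an adjusted p under 0.05 by none of the 23 and by 0.142% of all genes. In both genotypes the same libraries had the highest enterocyte marker sum (62350 FPKM in WT, 64000 FPKM in *Esrra*-/-), the lowest crypt marker sum (151.5 and 63.1 FPKM) and the lowest Paneth marker sum (7449 and 1554 FPKM). In low values 1 fragment was also worth more in these 2 libraries, at 1.2 and 1.21 times its value in WT replicate 1. The part of the cell markers was not tested. Sex, cell composition, the scaling of the libraries and any other property of the 2 mice cannot be told apart here.

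**Figure D3:**
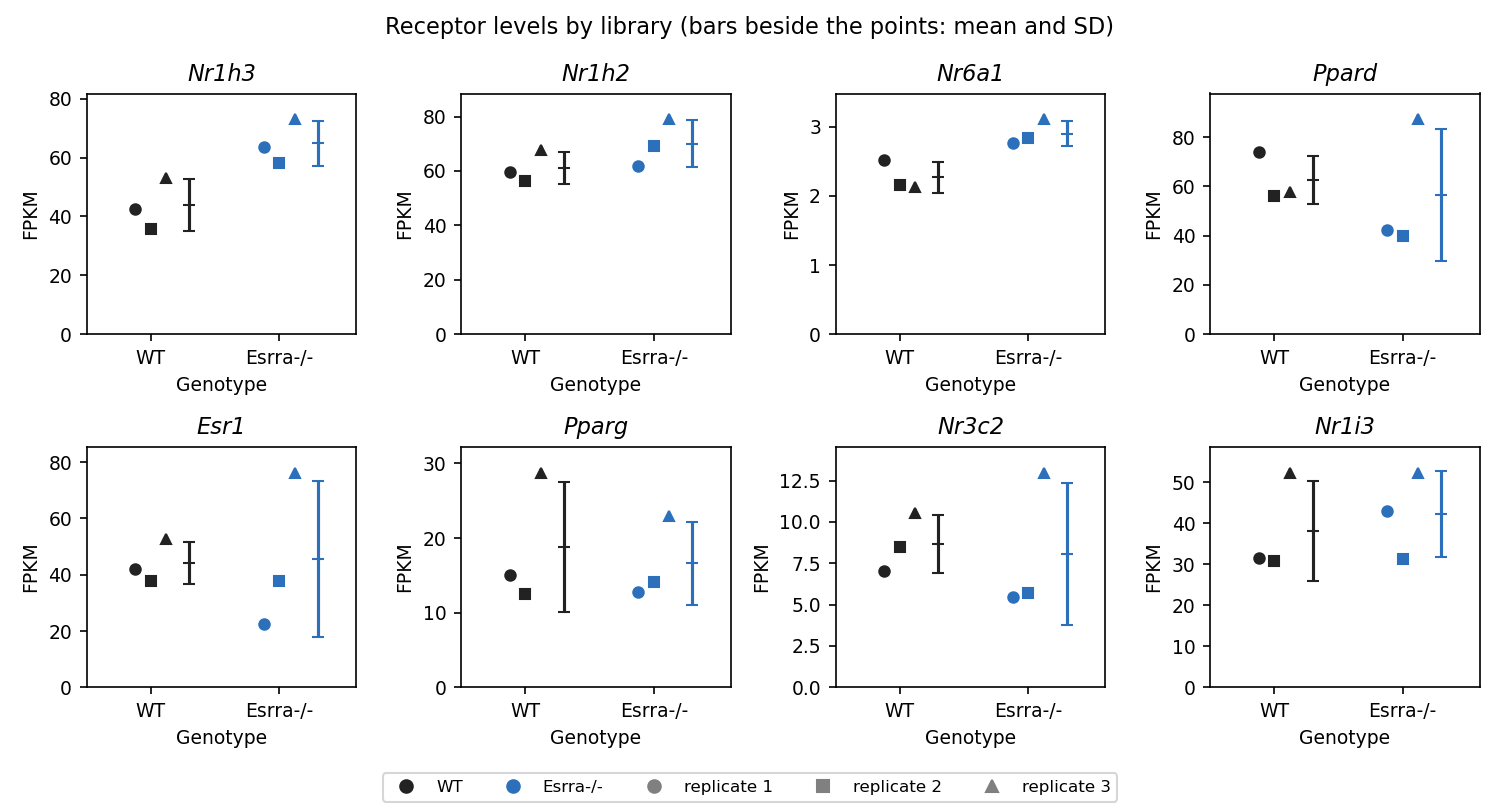
FPKM of 8 receptors in each library, WT in black and *Esrra*-/- in blue, with the replicate number as the symbol and the mean and SD (n = 3) beside the points. *Nr1h3* and *Nr6a1* do not overlap between genotypes, while *Pparg*, *Nr3c2*, *Esr1* and *Nr1i3* are highest in replicate 3 of both genotypes.

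Target and partner genes of the receptors were followed through 11 lists with 166 distinct genes, of which 128 were tested. Of the 128, 4 were called lower, *Esrra* itself among them, and 1 higher, where 3.28% and 1.35% of all genes tested were. The medians below depended on single libraries, so each is given with its range over fits that leave out 1 library. Counts of called genes are those over all 6 libraries, and they also moved. Without WT replicate 3, for example, 6 of the PXR and CAR targets were called, counting either direction. So were 2 each of the LXR targets, the LRH-1 targets and the immediate early genes. In that fit 2.02% of all genes were called higher and 3.78% lower. Among 20 tested PPARα targets, the genes of fatty acid oxidation and binding, 0 were called and 19 had a positive log2 fold change, against 54.3% of all genes, with a median of 0.15 (0.10 to 0.42, the highest without WT replicate 3). The enterocyte markers, which share *Fabp1* and *Fabp2* with this list, had a median of like size, 0.14, with 9 of 10 positive. None of them was called and their sums overlapped between genotypes. The crypt and Paneth medians were −0.67 and −1.37. The part of these cell types in the values of this and the following lists was not tested. *Fabp1*, the liver fatty acid binding protein, had 12130 ± 4024 FPKM in WT against 12950 ± 1576 FPKM in *Esrra*-/-, and *Fabp2* had 6870 ± 2885 and 7238 ± 1412 FPKM (SD, n = 3 each). The 11 tested LXR targets had a median of 0.30 (0.06 without *Esrra*-/- replicate 3 to 0.40 without WT replicate 3), and 0 were called. It was also 0.12 without *Esrra*-/- replicate 1 and 0.13 without WT replicate 2. *Lpcat3*, which remodels phospholipids, had 198.9, 198.0 and 223.9 FPKM in WT and 281.7, 256.1 and 257.4 FPKM in *Esrra*-/-. Its genotypes did not overlap, with a log2 fold change of 0.36 (limma adjusted p = 0.444). The next most abundant, the cholesterol transporter *Npc1l1*, had a log2 fold change of 0.15 (0.03 without *Esrra*-/- replicate 3 to 0.31 without *Esrra*-/- replicate 2). *Nr1h3* is itself on this list, since LXRs act on its gene.

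Of the FXR targets 4 were tested, 0 were called and the median was 0.02 (−0.21 without *Esrra*-/- replicate 3 to 0.28 without WT replicate 2). The 4 were *Slc51a*, *Slc51b*, *Fabp6* and *Nr0b2*, the last already given among the receptors. *Fabp6* passed the filter only through WT replicate 2, at 4.69 FPKM against at most 0.647 FPKM elsewhere. Its log2 fold change of −1.43, and with it the median, therefore rests on that library. *Slc51b* and *Slc51a*, the subunits of the basolateral bile acid exporter, had log2 fold changes of 0.45 and 0.38, which were 0.17 and −0.02 without *Esrra*-/- replicate 3. *Slc51b* was called higher without *Esrra*-/- replicate 2 (0.69). The 16 tested PXR and CAR targets had a median of 0.44 (0.19 without *Esrra*-/- replicate 3 to 0.62 without WT replicate 3), with 14 positive and 0 called. This was the highest of the lists over all 6 libraries, but without *Esrra*-/- replicate 3 it lay below the PPARα targets (0.24), and without WT replicate 1 (0.24) below the LXR targets (0.26). Their most abundant genes were *Gsta1*, a glutathione transferase (log2 fold change 0.19), and *Aldh1a1*, a retinaldehyde dehydrogenase (0.49, limma adjusted p = 0.500). Both were called higher without WT replicate 3 (0.89 and 0.64), and the value of *Gsta1* was −0.23 without WT replicate 2. The 6 tested retinoic acid receptor targets had a median of −0.05 and 0 calls. This median ran from −0.11 without WT replicate 2 to 0.10 without WT replicate 3, and was 0.29 in the 4 libraries with Y-linked transcripts. *Isx*, the repressor of carotenoid uptake, was at 0.31 (0.06 without *Esrra*-/- replicate 2 to 0.49 without *Esrra*-/- replicate 1). *Dhrs3*, a retinaldehyde reductase, was at 0.19 (0.02 without WT replicate 2 to 0.46 without WT replicate 3). The 8 thyroid hormone receptor targets had a median of 0.05 (0.02 without *Esrra*-/- replicate 3 to 0.18 without *Esrra*-/- replicate 1) and 0 calls. The brush-border phosphatase *Alpi* was at 0.29 (0.03 without *Esrra*-/- replicate 3 to 0.54 without WT replicate 3). *Ctnnb1*, β-catenin, was at 0.23. The 6 LRH-1 targets had a median of −0.02 (−0.11 without WT replicate 1 to 0.11 without WT replicate 3, and 0.13 in the 4 libraries with Y-linked transcripts) and 0 calls. *Apoa1*, the apolipoprotein of high-density lipoprotein, was at 0.48 and its receptor *Scarb1* at 1.22 (SE 0.97, limma adjusted p = 0.684). *Scarb1*, which is also on the retinoic acid receptor list, had 38.2 FPKM in WT replicate 3 against 5.97 and 2.12 FPKM in the other WT libraries. It was called higher without that library (2.35) and in the 4 libraries with Y-linked transcripts (1.87), and its value was 0.29 without WT replicate 2.

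The glucocorticoid and mineralocorticoid list, with 15 genes tested and a median of 0.12 (−0.18 without *Esrra*-/- replicate 3 to 0.39 without *Esrra*-/- replicate 2), held 2 genes called lower and 1 called higher, beside the 3.28% and 1.35% of all genes given above. *Mt1* had 145.5, 94.5 and 356.2 FPKM in WT and 63.9, 103.4 and 57.0 FPKM in *Esrra*-/-, a log2 fold change of −1.23 (limma adjusted p = 0.422). *Mt2* had 51.2, 15.7 and 85.3 FPKM in WT and 11.04, 16.03 and 7.32 FPKM in *Esrra*-/-, a log2 fold change of −1.90 (adjusted p = 0.355). WT replicate 2 lay within the *Esrra*-/- values for *Mt1* and below the highest of them for *Mt2*, so both genes overlapped. The call of *Mt1* was lost without WT replicate 1 (−1.34), WT replicate 3 (−0.70), *Esrra*-/- replicate 1 (−1.14) or *Esrra*-/- replicate 3 (−1.06). In the 4 libraries with Y-linked transcripts the calls of both genes were lost (*Mt1* −0.53, *Mt2* −1.09). Metallothioneins bind zinc and are also induced by metals. The Paneth markers, described beside *Nr1h3*, were lower in *Esrra*-/- as well. Among WT libraries their sum (8796, 15930 and 7449 FPKM) ran in the reverse order of *Mt1* and *Mt2*. Among *Esrra*-/- libraries it (4890, 6844 and 1554 FPKM) ran in the same order. The part of these cells was not tested here either. *Hsd11b2*, the enzyme that inactivates glucocorticoids, rose from 4.11 ± 0.332 to 6.25 ± 0.786 FPKM (SD, n = 3 each), with a log2 fold change of 0.59 (limma adjusted p = 0.289) and no overlap. This value lay near the threshold, and the call was lost without WT replicate 2, without *Esrra*-/- replicate 2 and with a pseudocount of 1.

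Of 16 immediate early genes 0 were called (median 0.20, from 0.10 without WT replicate 1 to 0.27 without WT replicate 3), with *Jund* at 0.07 and *Zfp36* at −0.02. All 22 coregulators were tested, with a median of 0.10 (0.06 without WT replicate 3 to 0.14 without WT replicate 1). *Prmt1*, an arginine methyltransferase and coactivator, fell from 21.6 ± 2.99 to 13.8 ± 0.760 FPKM (SD, n = 3 each). Its log2 fold change was −0.63 (limma adjusted p = 0.256), and no other coregulator was called. The call of *Prmt1* was lost without WT replicate 2. Among the other nuclear receptors of the superfamily 8 of 12 were tested and *Esrra* was the only gene called, with a median of −0.14 (−0.20 without WT replicate 1 to 0.09 without *Esrra*-/- replicate 2, and −0.30 in the 4 libraries with Y-linked transcripts). The most abundant of them were *Hnf4a*, with 180.0 ± 13.8 FPKM in WT and 179.7 ± 5.90 FPKM in *Esrra*-/-, and its relative *Hnf4g*, with 132.7 ± 41.9 and 168.0 ± 37.5 FPKM (SD, n = 3 each), both above every receptor of the 36 by mean. The count of listed genes called higher rested on single libraries, being 12 without WT replicate 3, where 2.02% of all genes were called higher, and 13 in the 4 libraries with Y-linked transcripts, where 1.99% were.

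**Figure D4:**
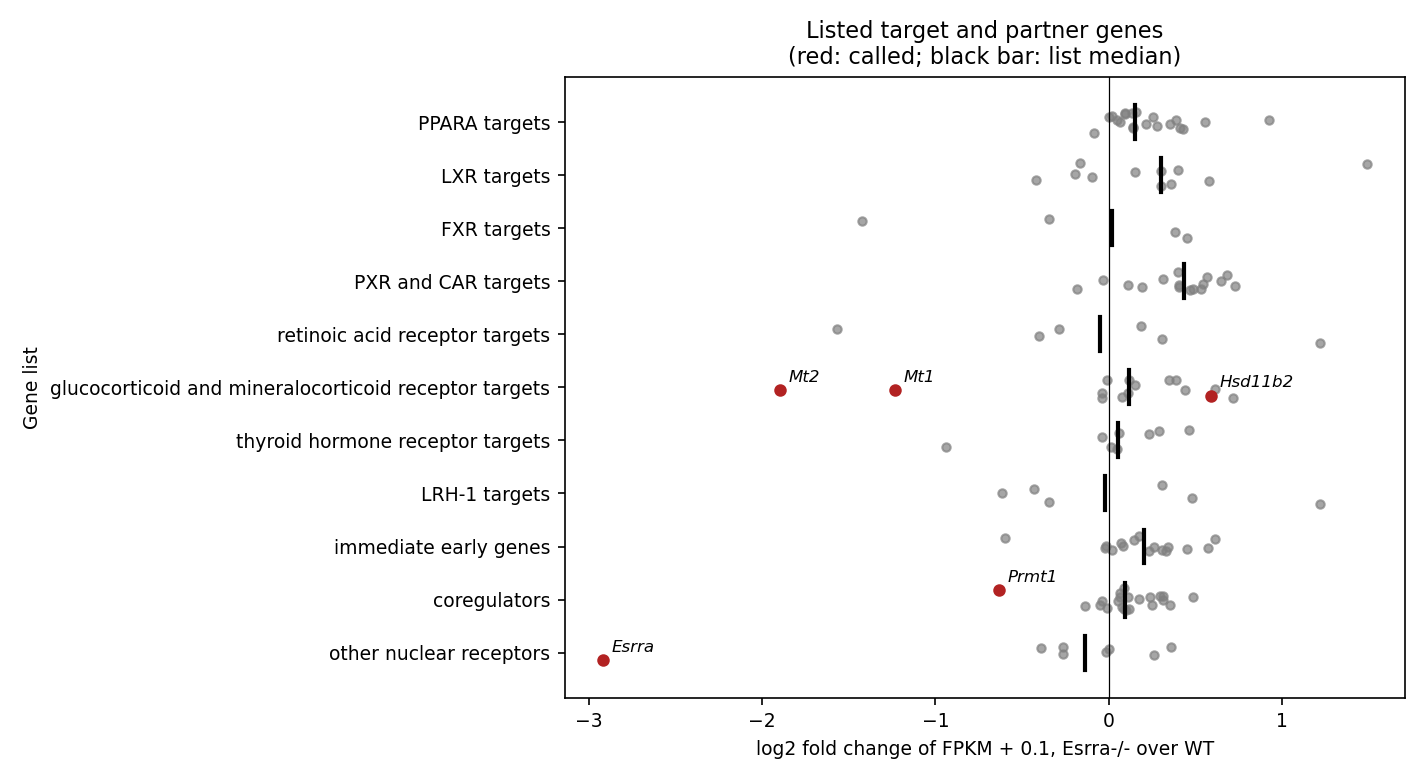
Log2 fold change of FPKM + 0.1, *Esrra*-/- over WT, of every tested gene on the 11 lists, with called genes in red and the list median as a black bar. Over all 6 libraries the medians lie between −0.14 for the other nuclear receptors and 0.44 for the PXR and CAR targets, and the called genes are *Esrra*, *Mt1*, *Mt2*, *Prmt1* and *Hsd11b2*.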

How the data were processed

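The duodenal epithelium was released with EDTA and sequenced from TruSeq libraries, 3 per genotype. Read quality was checked by FastQC, transcripts were quantified by Kallisto on mm9, and DESeq2 gave the FPKM values that the authors deposited. The submitters' processing notes give the versions as 0.11.3, 2.1.0 and 2.2.1. The annotation and strand setting are not given in the sources used here. A deposited table of the authors' own comparison (mean normalized count, log2 fold change, standard error, statistic, p-value and adjusted p-value) was not used.

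Here log2(FPKM + 0.1) of the 10596 genes with a mean FPKM above 1 was fitted with limma 3.58.1 in R 4.3.3 (mean-variance trend, no covariate, Benjamini-Hochberg adjustment over all genes tested) and tested on simulated data. For single genes an exact permutation test, two-sided, was added. p-values measure the spread between these mice. The number of fragments per library is unknown from FPKM. In low values 1 fragment was worth 1.2 times its WT replicate 1 value in WT replicate 3 and 1.21 times in *Esrra*-/- replicate 3. In the other libraries it was worth 0.976 to 1.06 times that value.

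The receptors and gene lists were chosen with earlier results of these data known. Per-library values were given for called or non-overlapping receptors and the 8 most abundant. From each list, called genes or the 2 most abundant were named, with library values, a mean and SD, or a log2 fold change alone. The library values given for *Pparg*, *Nr3c2*, *Nr2c2* and *Rarb*, and the mentions of *Hnf4a*, *Hnf4g*, *Smoc2*, *Ncor1*, *Myc* and *Ccnd1*, were chosen after their values were seen. Replicate numbers did not pair the samples. Coordinates are from GENCODE M1 on mm9 and promoter windows from RefSeq on GRCm38.p6. Older symbols were matched for *Slc51a* (*Osta*), *Slc51b* (*Ostb*), *Bco1* (*Bcmo1*), *Helz2* (*BC006779*), *Si* (*Sis*) and *Adgre1* (*Emr1*). The alternatives were other pseudocounts, filters, scalings and variance models, the replicate block, Y-linked transcripts as a covariate and leaving out libraries.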

Additional observations from a re-analysis of the deposited data

Results flagged for a closer look

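In 3 receptors the genotype difference had opposite directions in the libraries with and without Y-linked transcripts, every *Esrra*-/- library being lower than every WT library in the first set of 4 and higher in the second set of 2. Genes with this pattern were 5.72% of all tested. The difference between the 2 log2 fold changes was 1.25 for *Ppard*, 0.77 for *Nr3c2* and 0.99 for *Esr1*. For *Esr1* the separation in the first set was narrow, with *Esrra*-/- replicate 2 at 37.79 FPKM and WT replicate 2 at 37.93 FPKM. The 3 receptors were chosen for their opposite directions, so these values are a description and the difference was not tested for them alone. There is 1 library per genotype without Y-linked transcripts. In the limma fit across all genes, where those lone libraries are assumed to vary like the others, an unadjusted interaction p under 0.05 was reached by *Ppard*, *Nr3c2* and *Nr2c2* of the 23 receptors and by 5.29% of all genes, and no receptor had an adjusted p under 0.05.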

How the results depend on the processing

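The log2 fold change of *Esrra* stayed called under every alternative run, from −3.19 to −2.60, with limma adjusted p-values from 0.0204 to 0.190. The count of receptors called lower was 0 in the analysis as reported, 1 in the 4 libraries with Y-linked transcripts and 0 to 2 with each library left out. The count called higher was 0 as reported, 1 in the 4 libraries with Y-linked transcripts, 1 with no fold threshold and 0 to 1 with each library left out. Of the listed genes, 4 were called lower as reported, and 1 had an adjusted p under 0.05, which was *Esrra* itself. The count was 5 with the replicate block and 6 with Y-linked transcripts as a covariate. It was 3 in the 4 libraries with Y-linked transcripts and 3 to 6 with each library left out. Of all genes, 3.24% were called lower and 1.99% higher in those 4 libraries, and 3.78% and 2.02% without WT replicate 3. Shares of all genes for the replicate block and the covariate are not given here, so those counts have no background beside them. The genes *Myc* and *Ccnd1* were called lower with the replicate block, with the covariate and without WT replicate 3. Of these genes, 1 was called higher as reported, and 0 with a pseudocount of 1, 2 with no filter, 2 with FPKM above 1 in all 6 libraries, 2 with quantile normalization, 2 with Y-linked transcripts as a covariate, 13 in the 4 libraries with Y-linked transcripts, 0 at an adjusted p under 0.05, 5 with no fold threshold and 1 to 12 with each library left out. The 1 gene was *Ncor1*, not *Hsd11b2*, without WT replicate 2. With the replicate block the call of *Mt1* was lost and *Scarb1* was called higher. With FPKM above 1 in all 6 libraries the median log2 fold change of the FXR targets was 0.38, of the retinoic acid receptor targets 0.19, of the LRH-1 targets −0.35 and of the other nuclear receptors −0.02. With no filter it was 0.13 for the LXR targets, −0.06 for the FXR targets, −0.08 for the retinoic acid receptor targets, 0.11 for the immediate early genes and −0.07 for the other nuclear receptors. In the 4 libraries with Y-linked transcripts it was 0.41 for the PPARα targets and −0.0023 for the glucocorticoid and mineralocorticoid list. Quantile normalization gave 0.24 for the PPARα targets, −0.09 for the retinoic acid receptor targets and 0.02 for the LRH-1 targets. A pseudocount of 1 gave −0.07 for the LRH-1 targets and −0.08 for the other nuclear receptors. With the replicate block 3 listed genes were called higher, and no receptor was called. Same-numbered deviations correlated at 0.0116, 0.263 and 0.376 in replicates 1, 2 and 3. Receptors called higher in the libraries without Y-linked transcripts were 4 as reported and 2 with quantile normalization. Receptors called lower there were 1 as reported and 0 without WT replicate 3. The causes of these moves were not tested.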
